A study of Mus musculus with 26 samples.

Results

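The 34 genes described here encode complement and clotting proteins that hepatocytes make and secrete into plasma. They were chosen by name, as the rows of the deposited raw count table that carry these gene symbols, out of 36883 gene names in all, and all 34 passed the filter on low counts. RNA was taken from the livers of Eµ-MYC mice, transgenic animals in which the immunoglobulin heavy chain enhancer drives MYC, so that B-lineage lymphomas can arise and enter the liver. All animals carried the transgene, and the study compared 8 weeks of chronic jet lag lighting with a regular cycle of 12 hours of light and 12 hours of dark (12:12). There were 8 females under 12:12, 8 females under jet lag, 6 males under 12:12 (numbered 1 to 6) and 4 males under jet lag (numbered 5 to 8). The sources used here do not give the strain background, the ages, the health of the animals, the shift schedule or the hour of sampling.

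Library totals ran from 45364552 to 50242014 counts, so 1 count stood for a small fraction of any level given below, and expression is given as CPM, each count relative to the total of its library. The B cell gene Cd79a, which encodes a signalling chain of the B cell receptor, divided the libraries by its measured level and not by any label. In 8 libraries it lay between 14.5 and 144 CPM, and in the other 18 between 1.28 and 2.95 CPM. The 8 were females 6 and 7 under 12:12, females 2, 5 and 6 under jet lag, males 3 and 5 under 12:12 and male 8 under jet lag, and they are called Cd79a-high libraries below. The summed level of 12 B-lineage markers was 68.3 to 641 CPM in the Cd79a-high libraries against 10.6 to 24.5 CPM in the rest. That list includes Cd79a itself, so part of this gap follows from the division. Marker genes of other cells were also higher in the same libraries, with ranges that overlapped. Over 8 neutrophil markers the sums were 6.88 to 450 CPM against 1.19 to 7.32 CPM, and over 7 Kupffer cell and macrophage markers 416 to 2070 CPM against 222 to 482 CPM. No marker of these 3 lists was at 0 in all of the 18 other libraries. Albumin (Alb), the defining hepatocyte product, took 10% to 22.1% of the counts.

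Complement and clotting are 2 protease cascades of the plasma in which each activated enzyme cuts the next zymogen. Complement can start from antibody (classical), from sugar patterns on microbes (lectin) or by itself (alternative), meets at C3 and ends in a pore built from C5b, C6, C7, C8 and C9. Clotting runs through factors activated on a damaged surface or by tissue factor, meets at prothrombin and ends in the fibrin mesh, which plasmin later dissolves. Hepatocytes are the main source of nearly all of these proteins, and several of them belong to the acute phase response of the liver.

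The 34 genes together took 4.28% to 7.39% of the counts of a library. Per kilobase of transcript, and as the median over the 18 libraries low in Cd79a, C3 stood first with 3270 CPM per kb. It was followed by the 3 fibrinogen chains, Fgg with 2362, Fga with 2013 and Fgb with 1571 CPM per kb. Plasminogen (Plg), high molecular weight kininogen (Kng1) and prothrombin (F2) came next with 1359, 1262 and 1210 CPM per kb. Over the 18 libraries the ranges of neighbours in this order overlapped, as for C3 (1675 to 5180 CPM per kb) and Fgg (1605 to 2978 CPM per kb). These ranges alone therefore do not settle the order of neighbours. Genes further apart could be separate: the lowest C3 and Fgg values lay above the highest of Plg (1534), Kng1 (1520) and F2 (1303 CPM per kb). The lowest were the lectin pathway protease gene Masp1 with 27.8 CPM per kb, the protein S gene Pros1 with 17.6 CPM per kb and the terminal complement gene C6 with 8.88 CPM per kb. The C6 value is a median over both sexes of a gene that differed strongly between them, as described below. C4b and Kng1 have near-identical neighbours, C4a and Kng2, with which the authors' counting could split reads, so their levels are uncertain.

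The fibrinogen genes Fgg, Fga and Fgb, which encode the gamma, alpha and beta chains of the clot protein, lie in a row on chromosome 3 of GRCm38 (chr3:83007724-83015056, chr3:83026153-83033627 and chr3:83042246-83049863). The 250 bases before each annotated start are shown because these 3 genes of 1 protein had the smallest unadjusted p for jet lag among the 34, as given below. The sequences are RefSeq's of GRCm38.p6, read 5′ to 3′ along the gene's own strand, from chr3:83025903-83026152 (plus strand, Fga), chr3:83049864-83050113 (minus strand, Fgb) and chr3:83007474-83007723 (plus strand, Fgg). Capitals mark matches on either strand to 4 short motifs: GTTAAT (an HNF1 core), TTCNNNGAA (a STAT palindrome), TTGCNNAA (a C/EBP core) and CTGGGA (an interleukin 6 response core).
Fga: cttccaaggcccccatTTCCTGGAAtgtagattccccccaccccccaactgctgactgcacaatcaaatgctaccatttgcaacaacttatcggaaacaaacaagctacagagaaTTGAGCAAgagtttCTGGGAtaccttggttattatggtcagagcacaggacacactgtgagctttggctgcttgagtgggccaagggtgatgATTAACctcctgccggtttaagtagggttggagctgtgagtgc
Fgb: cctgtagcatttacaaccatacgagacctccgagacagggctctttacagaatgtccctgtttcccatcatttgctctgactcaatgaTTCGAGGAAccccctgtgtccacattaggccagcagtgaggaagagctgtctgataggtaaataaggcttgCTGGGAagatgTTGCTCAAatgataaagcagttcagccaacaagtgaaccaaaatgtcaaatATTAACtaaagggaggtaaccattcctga
Fgg: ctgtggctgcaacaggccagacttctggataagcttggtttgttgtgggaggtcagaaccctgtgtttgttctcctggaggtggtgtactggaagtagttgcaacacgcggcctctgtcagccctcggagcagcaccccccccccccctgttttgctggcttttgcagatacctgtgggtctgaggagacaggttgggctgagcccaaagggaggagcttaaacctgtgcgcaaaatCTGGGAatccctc
The Fga and Fgb windows held 1 match to each of the 4 motifs, with the HNF1 core beginning 43 and 29 bases before the start. The Fgg window held the interleukin 6 response core alone, 13 bases before the start. Of 27025 RefSeq promoters of the same length, 6.52% held the HNF1 core, 7.18% the STAT palindrome, 9.55% the C/EBP core and 26.84% the interleukin 6 response core. Among the 26 of the 34 genes with a promoter in that table the same motifs were found in 5, 6, 7 and 11. No motif overlapped another in the windows shown, and a match describes the letters only.

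The main question of the study was how liver expression differed after jet lag. Over both sexes, with 12 jet lag libraries against 14 under 12:12, 0 of the 34 genes passed an adjusted p of 0.05 in edgeR, where 0.781% of all 16892 genes did. At an unadjusted p under 0.05 there were 4 of the 34, namely Fgg, Fga, Fgb and the plasmin inhibitor gene Serpinf2, against 1353 of all genes, or 8.01%. DESeq2 called 1 of the 34, Fgg, and 258 of all genes. The fitted log2 fold changes of the 34 genes lay between -0.22 and 0.38, with 19 positive and 15 negative, and their median was 0.005 beside 0.022 over all genes tested. The RNA is from whole liver, so fewer hepatocytes and less of an RNA in each hepatocyte cannot be told apart.

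Fgg ran from 2861 to 4535 CPM with a median of 3534 CPM in females under 12:12, and from 3301 to 5876 CPM with a median of 4912 CPM in females under jet lag. In males it ran from 2721 to 4240 CPM (median 3677 CPM) under 12:12 and stood at 5005, 4030, 4685 and 4540 CPM in the 4 jet lag animals. Within each sex the ranges overlapped, and 11 of the 12 jet lag libraries lay above the 12:12 median of their own sex. The fitted log2 fold change was 0.38 (SE 0.11), with an adjusted p of 0.138 in edgeR and 0.0486 in DESeq2. In the authors' deposited DESeq2 table the adjusted p of Fgg was 0.065, the smallest of the 34 genes. Its log2 value there was -0.37 for 12:12 over jet lag. The model behind that table was not compared with the fits made here, which had sex as a term.

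Fga ran from 3436 to 5587 CPM (median 4437 CPM) in females under 12:12 and from 3912 to 7697 CPM (median 5588 CPM) under jet lag. In males the 12:12 range was 3950 to 6449 CPM (median 4855 CPM), and the jet lag values were 6055, 5525, 5261 and 6020 CPM. Here too the ranges overlapped within each sex, with 11 of 12 jet lag libraries above the 12:12 median of their sex. Its log2 fold change was 0.31 (SE 0.11, adjusted p 0.349 in edgeR).

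Fgb ran from 4100 to 6483 CPM (median 5461 CPM) in females under 12:12 and from 4430 to 10344 CPM (median 7304 CPM) under jet lag. The male values were 4275 to 6593 CPM (median 5929 CPM) under 12:12, and 6274, 5758, 6205 and 7009 CPM under jet lag. In 10 of the 12 jet lag libraries Fgb was above the 12:12 median of the sex, and the log2 fold change was 0.31 (SE 0.12, adjusted p 0.358 in edgeR).

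**Figure D1:**
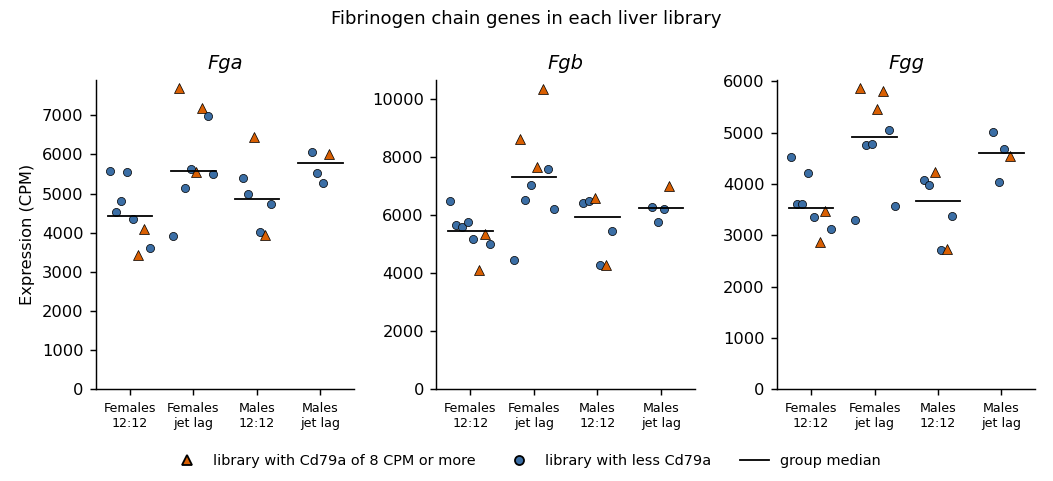
Expression of the 3 fibrinogen chain genes in CPM (linear axis from 0) in each of the 26 libraries by sex and lighting. Points are libraries, triangles are the 8 libraries with Cd79a of 8 CPM or more, and bars are group medians. The jet lag groups overlap the 12:12 groups and reach higher, except for Fga in males, where the highest value (6449 CPM) is under 12:12. The 3 highest Fgg values, 5460 to 5876 CPM, are all triangles among the jet lag females.

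The 3 highest Fgg levels were in the 3 Cd79a-high females under jet lag, at 5876, 5460 and 5822 CPM. For Fga this did not hold: jet lag female 7, which was not Cd79a-high, was at 6972 CPM and Cd79a-high jet lag female 5 at 5560 CPM. Without the 8 Cd79a-high libraries the log2 fold change of Fgg was 0.22 with an adjusted p of 0.406, and those of Fga and Fgb were 0.16 and 0.11. With the division as a covariate Fgg was at 0.39 with an adjusted p of 0.0806. In the jet lag females the summed neutrophil markers reached 450 CPM and in the 12:12 females 226 CPM, each in a Cd79a-high library, and their part in the fibrinogen values was not tested.

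With all 26 libraries, Serpinf2 alone among the other 31 genes had an unadjusted p under 0.05. It had a log2 fold change of 0.20 (SE 0.09, adjusted p 0.497), and 11 of 12 jet lag libraries were above the 12:12 median of their sex. The gene for plasminogen, Plg, was also above it in 11 of 12 libraries, with a fold change of 0.10 (SE 0.08). Mbl1, which encodes a mannose-binding lectin, was at 0.32 with a larger error (SE 0.22). At the other end F5, the cofactor of factor Xa, was at -0.22 (SE 0.13), and C2, which gives the catalytic part of the classical C3 convertase, was at -0.20 (SE 0.15). Without the Cd79a-high libraries F5 (-0.28), C2 (-0.19), C3 (-0.25) and Serpinf2 (0.18) had an unadjusted p under 0.05 in edgeR. The fibrinogen chains then did not. The adjusted p in edgeR were 0.286 for F5, 0.307 for C2, 0.352 for C3 and 0.233 for Serpinf2.

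By role, the 5 classical and alternative pathway genes (C2, C3, C4b, Cfb and Cfi) had a median of -0.03, the 4 lectin pathway genes -0.01 and the 5 terminal complement genes 0.02. The 6 vitamin K dependent genes (F2, F7, F9, F10, Proc and Pros1) had a median of -0.03 and the 4 contact system genes (F11, F12, Klkb1 and Kng1) -0.06. The 5 genes of fibrinolysis and clotting inhibition (Plg, Cpb2, Serpinc1, Serpind1 and Serpinf2) were all positive with a median of 0.11. The highest list median was that of fibrinogen and its cofactors, 0.31, in which F5 and F13b (factor XIII B chain, -0.03) were negative beside the 3 fibrinogen chains. In each of these 7 groups 0 genes passed the threshold.

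Within females 0 of the 34 genes passed (background 0%, 0 of 16892 genes, with 772 at an unadjusted p under 0.05 and 55 called by DESeq2), and 3 had an unadjusted p under 0.05. These were Fgb at 0.39 (SE 0.15), Fgg at 0.38 (SE 0.15) and Fga at 0.36 (SE 0.15), with adjusted p of 0.801, 0.802 and 0.909 in edgeR. Without the Cd79a-high libraries these values were 0.11, 0.13 and 0.13, with adjusted p of 0.922, 0.906 and 0.908. Within males 0 of the 34 passed (background 0.0118%, with 1630 of all genes, or 9.65%, at an unadjusted p under 0.05 and 83 called by DESeq2), 0 had an unadjusted p under 0.05, and DESeq2 called 0 of them. The male values were 0.38 (SE 0.19) for Fgg, 0.22 for Fga, 0.18 for Fgb and -0.42 (SE 0.21) for F5.

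Jet lag male 7 had low levels of F5 (362 CPM) and of Masp1 (59.5 CPM), while the other 3 jet lag males were at 777 to 951 CPM and 126 to 160 CPM. The difference between the sexes in the response was tested as an interaction, in which 0 of the 34 genes passed (background 0%, 902 genes at an unadjusted p under 0.05, 0 by DESeq2). None of the 34 reached an unadjusted p of 0.05 there, and the largest value was that of C8a, 0.69 (SE 0.53). The values of the fibrinogen chains were -0.004 (SE 0.24) for Fgg, 0.13 (SE 0.24) for Fga and 0.21 (SE 0.25) for Fgb.

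**Figure D2:**
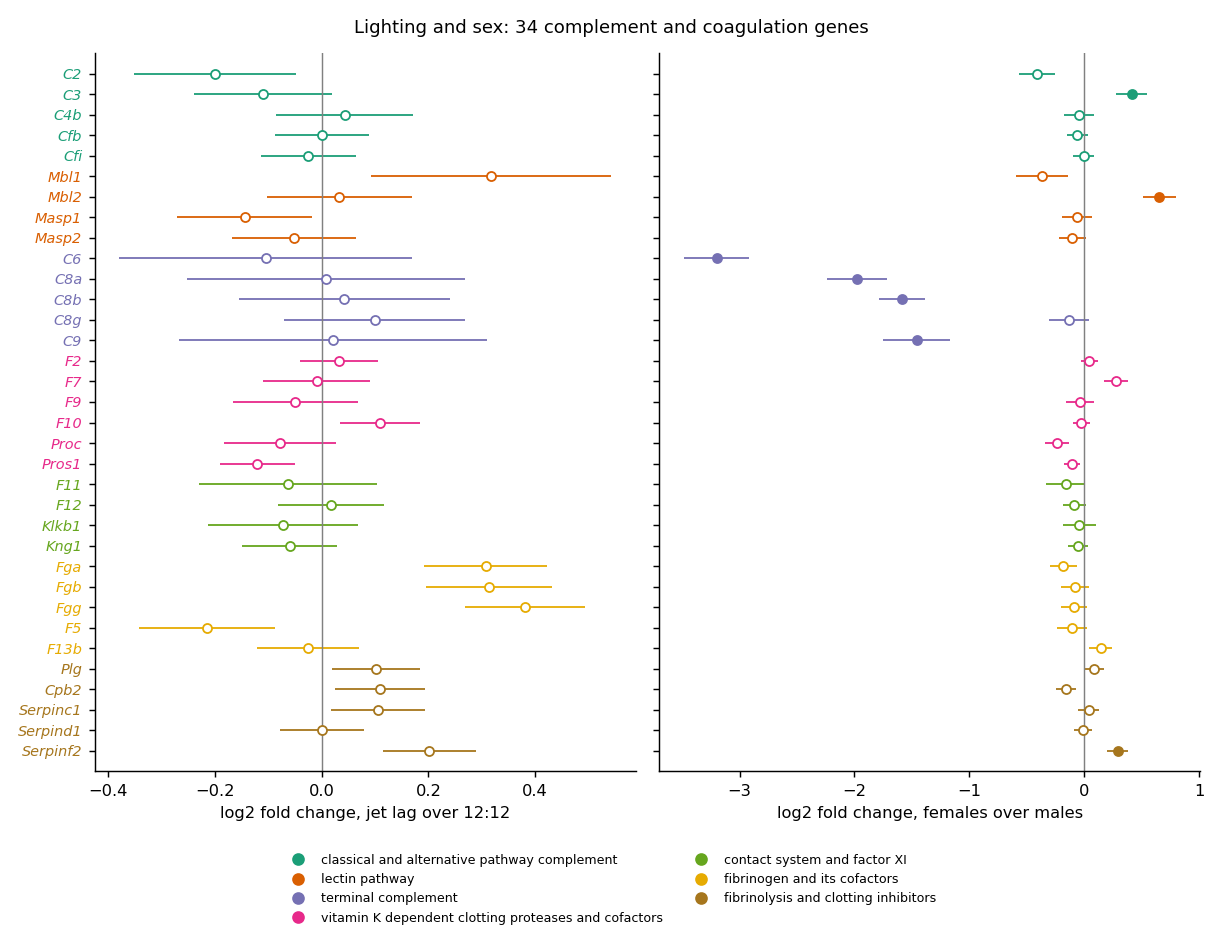
Fitted log2 fold changes of the 34 genes for jet lag over 12:12 (left) and females over males (right), with standard errors as bars and colours for roles. Filled points passed an adjusted p of 0.05 in edgeR: 0 genes on the left and 7 on the right, where C6, C8a, C8b and C9 lie between -3.20 and -1.46.

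Females and males differed in 7 of the 34 genes, where 9.13% of all genes passed (1542 of 16892). Lower in females were C6, C8a, C8b and C9, which are 4 of the 5 terminal complement genes in the list and encode parts of the membrane attack pore. Higher in females were Mbl2, C3 and Serpinf2. The medians were -0.07 over the 34 genes and -0.02 over all genes tested, with 26 of the 34 negative. At an unadjusted p under 0.05 there were 10 of the 34, against 3766 of all genes, or 22.3%.

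C6 lies at chr15:4727067-4804045 and encodes the component that binds C5b first. It ran from 15.2 to 60.7 CPM (median 23.8 CPM) in females under 12:12 and from 18.2 to 38.1 CPM (median 25.4 CPM) in females under jet lag. In males it ran from 45.1 to 307 CPM (median 268 CPM) under 12:12, and stood at 281, 342, 192 and 55.9 CPM under jet lag. The ranges of the sexes overlapped only through Cd79a-high libraries: in the 18 others C6 was 15.2 to 27.5 CPM in females and 192 to 342 CPM in males. The log2 fold change was -3.20 (SE 0.28, adjusted p 1.26e-08 in edgeR).

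C8a and C8b encode the alpha and beta chains of C8 and lie close together on chromosome 4 (chr4:104815679-104876487 and chr4:104766317-104804548). C8a had a median of 128 CPM over the 16 females (85.2 to 312 CPM) and of 595 CPM over the 10 males (180 to 812 CPM). C8b had a median of 163 CPM in females (119 to 273 CPM) and of 506 CPM in males (143 to 617 CPM). Female and male ranges overlapped for both genes, with males 3 and 8, both Cd79a-high, among the females in both, and jet lag male 7 (279 CPM) in C8a. The log2 fold changes were -1.98 (SE 0.26, adjusted p 1.08e-05) for C8a and -1.59 (SE 0.20, adjusted p 4.12e-06) for C8b.

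C9, on chromosome 15 (chr15:6445346-6498825), encodes the subunit that polymerises into the pore. Its median was 186 CPM in females (96.9 to 339 CPM) and 518 CPM in males (41.5 to 676 CPM), with a log2 fold change of -1.46 (SE 0.29, adjusted p 0.00162). The lowest of all 26 C9 values, 41.5 CPM, belonged to jet lag male 8, a Cd79a-high library. The fifth terminal gene, C8g, which encodes the small gamma chain of C8, did not pass, at -0.13 (SE 0.17, adjusted p 0.714). All 4 terminal genes that fell passed the threshold in each of the 31 alternatives run.

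**Figure D3:**
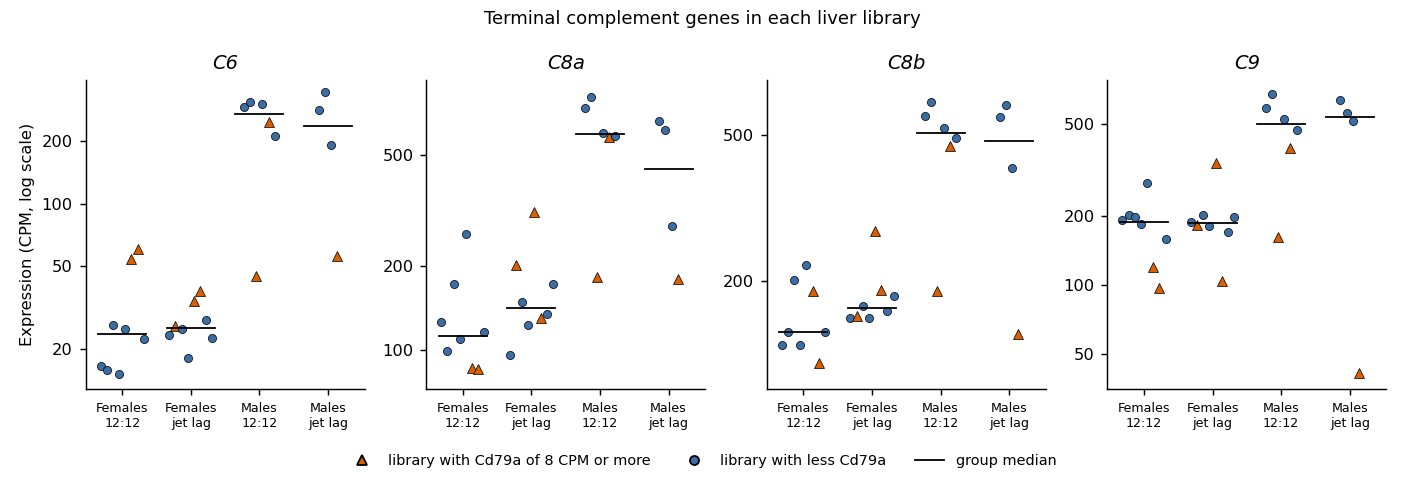
Expression of the 4 terminal complement genes lower in females, in CPM on a log axis, in each of the 26 libraries by sex and lighting. Points are libraries, triangles are the 8 libraries with Cd79a of 8 CPM or more, and bars are group medians. Among the circles males lie above all females for every gene, and the triangles of males 3 and 8 drop to female levels or lower.

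Of the genes higher in females, Mbl2 encodes a mannose-binding lectin that starts the lectin pathway. Its median was 681 CPM in females (384 to 908 CPM) and 388 CPM in males (317 to 490 CPM), and the log2 fold change was 0.66 (SE 0.14, adjusted p 0.00334). Only female 6 under 12:12, a Cd79a-high library at 384 CPM, lay inside the male range. C3, the hub of the complement cascade, had a median of 17762 CPM in females and 11389 CPM in males with a log2 fold change of 0.41 (SE 0.13, adjusted p 0.0493).

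The C3 ranges overlapped (16093 to 26603 CPM against 8604 to 23203 CPM), and its call was lost in 23 of 31 alternatives, holding in 5 of the 26 fits without 1 library. Serpinf2, which encodes the main inhibitor of plasmin, had medians of 894 and 657 CPM and a log2 fold change of 0.29 (SE 0.09, adjusted p 0.0385). Its call was lost in 14 of 31 alternatives, holding in 13 of those 26 fits. Both are therefore near the threshold, and their values stayed between 0.37 and 0.51 (C3) and between 0.27 and 0.37 (Serpinf2).

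The other 27 genes did not pass. The factor VII gene F7 was at 0.28 (SE 0.10, adjusted p 0.0967), C2 at -0.41 (SE 0.15, adjusted p 0.102) and the protein C gene Proc at -0.24 (SE 0.11, adjusted p 0.183). C2 passed once male 3 or male 8 was left out, and F7 once female 7 under 12:12, jet lag female 5 or male 8 was. Of the 6 vitamin K dependent genes, 4 contact system genes and 5 genes of fibrinogen and its cofactors, 0 passed. The fibrinogen chains were at -0.18 (Fga), -0.08 (Fgb) and -0.09 (Fgg), each within 2 standard errors of 0.

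The 8 Cd79a-high libraries bear on these counts. Without them 12 of the 34 genes passed between the sexes, 4 higher and 8 lower in females. Calls over all genes rose too, to 3188 from 1542 with all 26 libraries. The low-count filter was run again for this fit and the share of all genes is not given, so the 12 are not set against a background. The 12 were the 7 named above with C2 (-0.47), Mbl1 (-0.50), F7 (0.45), Proc (-0.29) and Cpb2 (-0.23), which encodes the carboxypeptidase that slows fibrinolysis. C6 was then at -3.81, C8a at -2.22, C8b at -1.84, C9 at -1.67 and Mbl2 at 0.74.

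The Cd79a-high libraries were then described against the other 18 with sex and lighting in the model. This is a division by a measured gene, so no p is given. The fitted log2 difference was negative in 29 of the 34 genes, and its median was -0.27 beside -0.02 over all genes tested. In 5 genes it was lower by more than 1.5-fold (background 8.52%) and in 0 higher by as much (background 18%), and in 0 was every Cd79a-high library below every other (background 0.142%).

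The 5 genes lower by more than 1.5-fold were C9 (-0.81, SE 0.29), C8g (-0.66, SE 0.14), Mbl1 (-0.66, SE 0.22), F11 (-0.65, SE 0.13) and Klkb1 (-0.60, SE 0.10). C9 and C8g belong to the pore, Mbl1 to the lectin pathway, and F11 and Klkb1 encode factor XI and plasma prekallikrein, 2 proteases of the contact group. This number depended on single libraries: it was 2 without jet lag male 8, and 3 without female 6 or 7 under 12:12 or without male 3 under 12:12.

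Klkb1 ran from 107 to 226 CPM (median 174 CPM) in the Cd79a-high libraries and from 155 to 267 CPM (median 240 CPM) in the rest. Scaled by TMM, each of the 8 was below the lowest of the other libraries of its own sex and lighting. F11 had medians of 60.8 CPM (43.3 to 105 CPM) and 87.4 CPM (67.0 to 120 CPM). C8g had medians of 202 CPM (125 to 298 CPM) and 294 CPM (218 to 412 CPM). For all 3 genes the ranges of the libraries overlapped.

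Among the terminal genes with a sex difference, C6 is described by sex. Whether the division differed between the sexes was not tested. In the 3 Cd79a-high males C6 was 45.1 CPM (male 3 under 12:12), 247 CPM (male 5 under 12:12) and 55.9 CPM (jet lag male 8), against 192 to 342 CPM in the 7 other males. In the 5 Cd79a-high females it was 54.1, 60.7, 26, 34.1 and 38.1 CPM, against 15.2 to 27.5 CPM in the 11 other females. So males 3 and 8 lay below every other male while 4 of the 5 females lay above every other female, and the joint difference of 0.13 (SE 0.31) mixes these directions.

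The C8 and C9 genes showed the low values in the same males. C8a was 183, 580 and 180 CPM in these 3 libraries, in the same order, against 279 to 812 CPM in the other males. C8b was 188, 467 and 143 CPM, against 406 to 617 CPM. C9 was 162, 392 and 41.5 CPM, against 470 to 676 CPM, so that all 3 Cd79a-high males were below the others in C9.

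In females the same 3 genes did not all go 1 way. Scaled by TMM and over both sexes, C9 in 7 of the 8 Cd79a-high libraries was below the median of the other libraries of their own sex and lighting. For C8a this held in 6 and for C8b in 5. C9 was lowest in females 6 and 7 under 12:12 (120 and 96.9 CPM) and in jet lag female 6 (104 CPM), yet highest in jet lag female 5 (339 CPM). C8a was lowest in females 7 and 6 under 12:12 (85.2 and 86.2 CPM) and highest in jet lag female 5 (312 CPM). That library also held the highest neutrophil marker sum, 450 CPM, whose part in these values was not tested.

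Among the early complement genes, C2 (-0.58, SE 0.12) and C4b (-0.45, SE 0.11), which together make the classical C3 convertase, were lower, and so was Cfb, the protease of the alternative convertase (-0.21, SE 0.08). C3 (0.10, SE 0.13) and Cfi, the protease that inactivates C3b and C4b (0.09, SE 0.09), were slightly positive. All 4 lectin pathway genes were negative, with Mbl2 at -0.50 (SE 0.11), the protease genes Masp2 at -0.44 (SE 0.09) and Masp1 at -0.28 (SE 0.12). C3 turned negative, at -0.05, without male 3 under 12:12, whose C3 was 23203 CPM.

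The 6 vitamin K dependent genes were at -0.34 (SE 0.09) for Proc, the anticoagulant protein C, -0.27 for F9 (factor IX), -0.22 for F7 and -0.19 for F2, while F10 (factor X) was at -0.10 and the protein C cofactor gene Pros1 at 0.07. F12, which encodes the contact factor XII, was at -0.28 (SE 0.09) and Kng1 at 0.13 (SE 0.09). Kng1 was higher in males 3 and 8 (3400 and 3459 CPM) than in any other library.

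The joint differences of the fibrinogen chains, -0.08 (SE 0.12) for Fga, -0.02 (SE 0.13) for Fgb and -0.09 (SE 0.12) for Fgg, mix directions. Scaled by TMM, Fgg in 4 of the 8 Cd79a-high libraries was below the lowest, and in 3 above the highest, of the other libraries of their own sex and lighting. Females 6 and 7 under 12:12 were among those below and the 3 jet lag females were those above. F13b was at -0.35 (SE 0.08) and F5 at -0.21 (SE 0.13). The inhibitor genes were negative, with antithrombin (Serpinc1) at -0.31 (SE 0.07), Serpinf2 at -0.29 (SE 0.07) and heparin cofactor II (Serpind1) at -0.19 (SE 0.08). So were Plg at -0.22 (SE 0.08) and Cpb2 at -0.17 (SE 0.08).

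**Figure D4:**
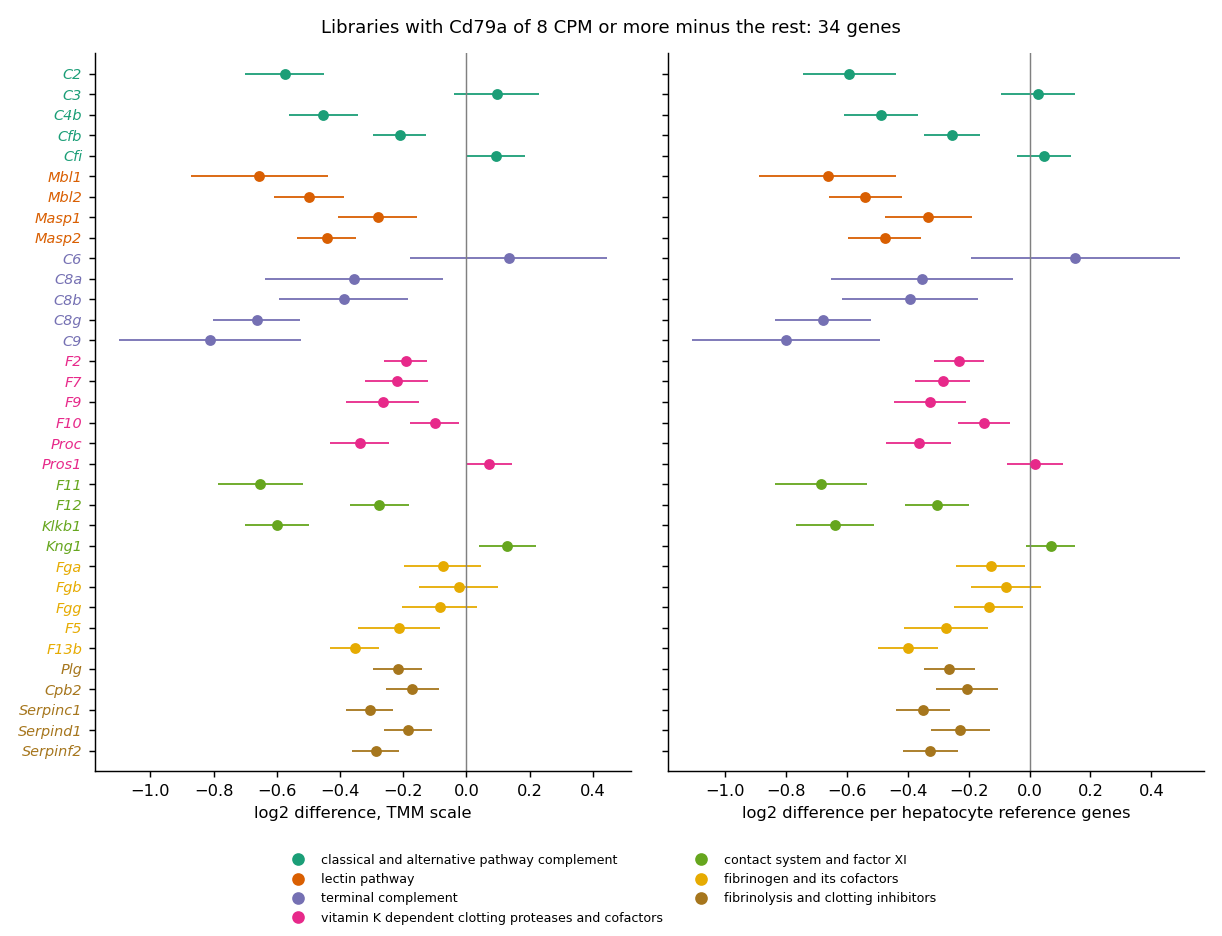
Fitted log2 differences of the 34 genes, the 8 libraries with Cd79a of 8 CPM or more minus the other 18, scaled by TMM (left) and per summed level of 23 hepatocyte reference genes (right). Bars are standard errors and colours mark roles. On both scales 29 of 34 genes lie below 0 and C9 lies lowest.

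The scale shifted all genes together. With plain CPM the median over all genes tested was 0.142, against -0.02 by TMM, and that of the 34 genes was -0.107. On that scale 25 of the 34 were negative, with F10 and the 3 fibrinogen chains turning positive, and 1 was lower by more than 1.5-fold. Per hepatocyte reference genes, a list with Alb and other secreted and metabolic products, the median of the 34 was -0.31 beside -0.07 over all genes, and 29 were negative. Alb makes up most of that summed level. By TMM it was at 0.23 (SE 0.08), while 18 of the 23 reference genes were negative. As a share of all counts the sum of the 34 genes was not lower, with a mean of 5.75% in the Cd79a-high libraries and 5.43% in the rest. C3 and the 3 fibrinogen chains make up much of this sum. Per 100 counts of the hepatocyte reference genes its mean was 22.0 (17.4 to 31.1) in the Cd79a-high libraries against 24.1 (21.3 to 26.5) in the rest.

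Other genes of the cascades gave a background for the members. Of 20 tested genes of further liver-made complement and clotting proteins, 17 were negative in the division, with a median of -0.33. Ggcx, the carboxylase that activates the vitamin K dependent factors, was at -0.67 (SE 0.13), and Serping1, the C1 inhibitor gene, at -0.55 (SE 0.11). The 14 tested genes of macrophage complement and complement receptors had a median of 0.83, with Itgam at 1.63 (SE 0.22), C3ar1 at 1.39 (SE 0.20) and Vsig4 at 1.30 (SE 0.15). Of the 14, 10 were positive and 4 negative, and 2 of these, named after their values were seen, were lower by over 1.5-fold: Cr2 (-1.22, SE 0.38) and Itgax (-0.73, SE 0.26). Cr2 was low throughout, with a median of 0.058 CPM per kb in the libraries low in Cd79a, so its difference rests on few counts. The 15 clotting genes of vessels and blood cells had a median of 0.22, with the urokinase receptor gene Plaur at 2.25 (SE 0.21) and F13a1 at 2.17 (SE 0.35). In the libraries low in Cd79a, F13a1 was also low, with a median of 0.057 CPM per kb. Of the 15, 11 were positive and 4 negative, and the tissue factor gene F3, named after its value was seen, was lower by over 1.5-fold (-0.64, SE 0.17).

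The 16 acute phase genes had a median of 0.41 in the division, with 12 positive. The hepatocyte reference genes had a median of -0.20 and the 12 hepatocyte transcription factors -0.35. The median of the 34 genes, -0.27, lay between those of the last 2 lists. Kupffer cell and macrophage markers had a median of 0.98 and neutrophil markers of 5.06. The part of these cells in the members' values was not tested.

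In the lighting comparison over both sexes 0 genes of these 3 cascade lists passed (0 of 20, 0 of 14 and 0 of 15). Between the sexes 3 of the 20 liver-made genes passed, with Colec11 higher in females (0.44, SE 0.10, adjusted p 0.00511) and C4a (-0.79, SE 0.20, adjusted p 0.0133) and Cfhr2 (-0.35, SE 0.11, adjusted p 0.0379) lower. Colec11 encodes a collectin of the lectin pathway, as Mbl2 does. Of the macrophage genes 0 of 14 passed, and of the vessel and blood cell genes 2 of 15, Serpine2 (-2.19, SE 0.21) and the thrombin receptor gene F2r (-0.79, SE 0.16), both lower in females.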

How the data were processed

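Stranded mRNA libraries were made from liver RNA of 26 numbered animals, per the labels. The authors deposited expected counts per gene name, with 0.015 in place of 0, made with STAR on mm10 per the submitters' processing notes, without versions. The sources used here name no counting tool, annotation or strand setting. The 0.015 values were set to 0, lines sharing a name were summed and values were rounded, since 1.44% were not whole (tolerance 1e-06). The authors also deposited a DESeq2 table of log2 fold changes and p-values, used only to set its calls beside those made here.

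CPM was the count divided by the column sum. In edgeR 4.0.16 (R 4.3.3) genes passing filterByExpr by group (minimum count 10) were kept, scaled by TMM and tested with quasi-likelihood F tests (robust glmQLFit). Sex and lighting were additive for the comparisons over both sexes and between sexes, and a model of 4 group means served the comparisons within a sex and the interaction. P-values were adjusted over 16892 genes by Benjamini and Hochberg, with a threshold of 0.05. The SE was the log2 value divided by the square root of F. The Cd79a division was an added term, described without a p. Alternatives were DESeq2 1.42.0, its size factors, no filter, each library left out, the Cd79a-high libraries left out or as a covariate, summed near copies and a replicate block. On data simulated for the comparison over both sexes, 73.33% of 195 genes changed by a log2 of 1 were recovered among 16673, with 5.30% false calls.

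No libraries of a group were copies (chi-square per degree of freedom at least 29). A count of 0 would allow up to 3 counts, which is at most 0.0661 CPM in any library and covers counting error only. Positions, starts and promoters came from RefSeq on GRCm38.p6. The 34 genes and all lists were chosen with earlier results of these data known. Any of the 34 could be named, and of other lists up to 4 genes past the threshold and 3 with the smallest p or largest difference.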

Additional observations from a re-analysis of the deposited data

Results flagged for a closer look

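Each of the 34 genes was checked in each of the 4 groups for a library set apart from the others by a gap large against the group's range. In 18 of 136 such checks the highest or lowest library stood apart. The limit used flags about 1 in 20 of independent, normally distributed sets. These checks share libraries, and CPM was not scaled by TMM, so no excess over chance is read from them. Of the 18, 15 lay in Cd79a-high libraries, 6 of them in male 3 under 12:12 and 4 in jet lag female 5.

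In male 3 under 12:12 the values set apart were low for C2 (111 CPM), C6 (45.1 CPM), C8a (183 CPM) and C8b (188 CPM), and high for F7 (116 CPM) and Kng1 (3400 CPM). Jet lag male 8 was also high for F7 (166 CPM) and Kng1 (3459 CPM). For F7, female 7 under 12:12 and jet lag female 5 were set apart as low, at 101.4 and 101.6 CPM. These flags do not make a difference by sex, which was not tested. Scaled by TMM, F7 in 7 of the 8 Cd79a-high libraries was below the median of the other libraries of their own sex and lighting. Male 3 was among the 7, and only jet lag male 8 was above the highest of those others.

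Jet lag female 5 was set apart as high for Mbl1 (242 CPM), C8b (273 CPM) and C9 (339 CPM). Female 6 under 12:12 was low for Cfb (1414 CPM) and F5 (457 CPM). Outside the Cd79a-high libraries, female 5 under 12:12 was high for C3 (26603 CPM), and jet lag male 7 was high for Mbl2 (490 CPM) and low for Pros1 (42.4 CPM).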

How the results depend on the processing

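The members followed through every alternative (Fga, Fgb, Fgg, Serpinf2, Mbl1, F5 and C2 for jet lag over both sexes, and C6, C8a, C8b, C9, Mbl2, C3, Serpinf2, C2 and F7 between the sexes) kept their direction in all of them. Small values of other members changed sign without the Cd79a-high libraries, C6 from -0.10 to 0.07 and C8a from 0.008 to -0.28 for jet lag over both sexes among them, and the Fga interaction went from 0.13 to -0.08. In the Cd79a division 6 members with small differences (C3, C6, F10, Fga, Fgb and Fgg) changed sign under at least 1. For jet lag over both sexes, 0 members passed in 32 of 33 alternatives, each of the 26 fits without 1 library included (0 to 0), and 1 (Fgg) passed with DESeq2. The counts within females, within males and for the interaction stayed at 0 in all alternatives. Between the sexes 5 to 9 members passed with 1 library left out, where 1134 to 2069 of all genes did. Without the Cd79a-high libraries 12 passed, and calls over all genes rose as well. The low-count filter was run again for each of these fits, so shares are not given. The median difference of the Cd79a division was -0.107 with CPM of the column sum and ran from -0.289 to -0.206 with 1 library left out. A limit of 4 CPM on Cd79a gave the same 8 libraries, and 16 CPM gave 7 and a median of -0.28.

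Over all genes, the 132 calls for jet lag became 225 with the Cd79a covariate, 258 with DESeq2, 381 without the Cd79a-high libraries and 70 to 244 with 1 library left out. In females 0 became 8 to 55 under 5 settings (0 to 13 with 1 library left out). In males 2 became 0 to 219 (0 to 106). The 1542 sex calls became 3188 without the Cd79a-high libraries. The replicate block left 0 members past the threshold in each of the 3 lighting comparisons it was run for, with 111 genes over both sexes, 20 in females and 0 in males. The labels do not say whether equal numbers pair animals. Deviations of same-numbered females correlated at -0.384 to 0.602 over 8 pairs, and of males at -0.269 and 0.267, which cannot settle it. The causes of these shifts were not tested. With 4 jet lag males, 1 of them Cd79a-high, the male comparison is the least precise, and its largest SE among members was 0.48, against 0.37 in females.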
